A study of Mus musculus with 14 samples.

Results

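The 10 COMMD genes, Commd1 to Commd10, were followed across blood-forming cells of mice with and without Rheb1. Members were all rows of the scanner files that carry one of these 10 gene names, which gave 16 probes among 41174 on the array, or 10 of 27343 gene names. The family was chosen by the Commd10 signal on these arrays, which was higher in Rheb1-/- cells of all 3 cell types, so the genotype differences of Commd10 are given as a description without a test. The question is whether the other 9 members differ by genotype as Commd10 does. Each of 14 samples of total RNA was hybridised to 1 single-colour Agilent array. Wild-type mice gave 3 samples of myeloid progenitors, 3 of myeloid cells and 1 of hematopoietic stem cells, and Rheb1-/- mice gave the same numbers. Rheb1-/- mice carried Vav1-cre and floxed Rheb1 alleles (Rheb1fl/fl). Vav1-cre is active throughout the blood-forming system, so every blood cell type of these animals is a target of the deletion. Whether the wild-type animals also carried floxed alleles, and the age and sex of the animals, are not given in the sources used here. Which animals the samples came from is not stated, and p-values therefore cover the variation between these samples, which may be technical.

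Rheb1, listed as Rheb in current annotation, is a small GTPase of the Ras superfamily that switches on mTORC1, the kinase complex through which nutrient and growth factor supply sets cell growth. COMMD proteins are named for a shared carboxy-terminal COMM domain. They assemble into a ring that, with the coiled-coil proteins CCDC22 and CCDC93 and with the VPS35L, VPS26C and VPS29 proteins, forms the Commander complex on endosomes. Commander returns receptors and transporters, among them integrins and copper pumps, from endosomes to the cell surface. COMMD1, the founding member, is also known for copper handling and for limiting the activity of NF-kB. In mice Commd10 has been studied in monocytes and macrophages, where it is linked to the maturation of phagosomes.

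Positions of the 60-base probes follow the scanner files, which use the mm9 build. Commd1 had 3 probes on the minus strand of chromosome 11, at chr11:22799933-22799992, chr11:22856615-22856674 and chr11:22882184-22882243, which span 82.3 kb. Commd8 had 2 on the minus strand, at chr5:72548356-72548415 and chr5:72552176-72552235, which lie within 3.88 kb. The following probe sequences are shown because several probes on one gene allow the Commd1 and Commd8 results to be compared within the gene.
Commd1 probe at chr11:22882184-22882243: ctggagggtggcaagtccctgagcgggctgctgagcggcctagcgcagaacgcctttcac
Commd1 probe at chr11:22856615-22856674: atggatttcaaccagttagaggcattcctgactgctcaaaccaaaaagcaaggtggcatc
Commd8 probe at chr5:72552176-72552235: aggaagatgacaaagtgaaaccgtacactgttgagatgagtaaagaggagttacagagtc
Their GC content was 66.7%, 45.0% and 41.7% in that order. Commd2 had probes at chr3:57449230-57449289 and chr3:57450284-57450343, Commd6 at chr14:102033531-102033590 and chr14:102039713-102039772, and Commd7 at chr2:153443531-153443590 and chr2:153444693-153444752, all on the minus strand. The other members had 1 probe each. These lay at chr2:18597631-18597690 for Commd3, chr15:76731640-76731699 for Commd5 and chr2:101741377-101741436 for Commd9 on the plus strand, and at chr9:57003022-57003081 for Commd4 on the minus strand, and the place of the Commd10 probe is given with its neighbours. Which exon or untranslated region each probe meets was not analysed here. Over 113 pairs of probes of different members, the longest run of identical bases on either strand was 9 of 60, and it was 8 between the Commd10 probe and any other. Where a gene had several probes, the one with the highest mean signal stood for it. All 10 of these were well above background on all 14 arrays, none was saturated, and all 10 passed the filter on dim genes, as did 17727 genes in all.

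Levels below are log2 signals above the array's own 75th percentile, and they are not compared between genes because each probe has its own response. Rheb, the targeted gene, was lower in Rheb1-/- cells without overlap between the genotypes, by 1.08 ± 0.22 (SE) in progenitors (limma adjusted p = 0.0940), 0.89 ± 0.22 in myeloid cells (limma adjusted p = 0.0117) and, on 1 array per genotype, from 3.46 to 2.26 in stem cells. Whether its probe lies in the deleted part is not given. On an array 58.2% to 67.4% of spots were well above background. The summed signal of 7 progenitor markers, as multiples of the array's 75th percentile, was 1401 to 1703 on progenitor arrays and 580.7 to 1385 on myeloid cell arrays, that of 7 neutrophil markers 790.1 to 1291 and 2231 to 3111, and that of 6 stem cell markers 18.6 and 22.0 on the stem cell arrays against at most 2.51 elsewhere. By the headers 4 slides were used. Wild-type myeloid cells (all 3 arrays) shared slide 1 with Rheb1-/- stem cells, and wild-type stem cells shared slide 2 with progenitor array 1 of the wild type. On slide 3 were the remaining wild-type progenitor arrays and Rheb1-/- progenitor arrays 1 and 2. On slide 4 were Rheb1-/- progenitor array 3 and all Rheb1-/- myeloid cell arrays. For myeloid cells and for stem cells, slide and genotype cannot be told apart. In wild-type cells, slide cannot be told apart from the difference between myeloid cells and progenitors.

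Commd10 stood higher in Rheb1-/- cells of each cell type, and its groups did not overlap by genotype. In progenitors the wild-type arrays read 0.59, 0.46 and 0.68 (mean 0.57 ± 0.11 SD, n = 3) and the Rheb1-/- arrays 1.69, 1.89 and 1.88 (1.82 ± 0.12, n = 3). In myeloid cells the wild-type arrays read 0.22, 0.19 and -0.17 (0.08 ± 0.22, n = 3) and the Rheb1-/- arrays 2.46, 2.47 and 2.55 (2.50 ± 0.05, n = 3). The stem cell arrays read 0.39 for wild type and 2.00 for Rheb1-/-. Every Rheb1-/- array of any cell type thus read above every wild-type array of any cell type. A looser pattern was to lie wholly higher in Rheb1-/- progenitors and myeloid cells and higher on the Rheb1-/- stem cell array. It was met by 596 of 17727 genes (3.36%). In bulk RNA, a different share of cells that express a gene and a different amount of its RNA per cell cannot be told apart.

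The Commd10 difference between genotypes was 1.25 ± 0.12 (SE) in progenitors, a 2.38-fold higher level, and 1.22 within slide 3. It was 2.42 ± 0.12 in myeloid cells, or 5.35-fold, where slide and genotype coincide, and 1.60 in stem cells, or 3.04-fold, where they also coincide. Ordered by mean, the groups ran from Rheb1-/- myeloid cells (2.50) through Rheb1-/- stem cells (2.00), Rheb1-/- progenitors (1.82), wild-type progenitors (0.57) and wild-type stem cells (0.39) to wild-type myeloid cells (0.08). The lone stem cell arrays have no spread of their own. The Rheb1-/- stem cell value lay above all 3 Rheb1-/- progenitor values, and the wild-type stem cell value below all 3 wild-type progenitor values. Rheb1-/- myeloid cells and Rheb1-/- progenitors did not overlap, and neither did wild-type progenitors and wild-type myeloid cells. Over all genes 31.9% lay wholly higher in Rheb1-/- myeloid cells than in Rheb1-/- progenitors. In wild-type cells 39.7% lay wholly lower in myeloid cells.

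**Figure D1:**
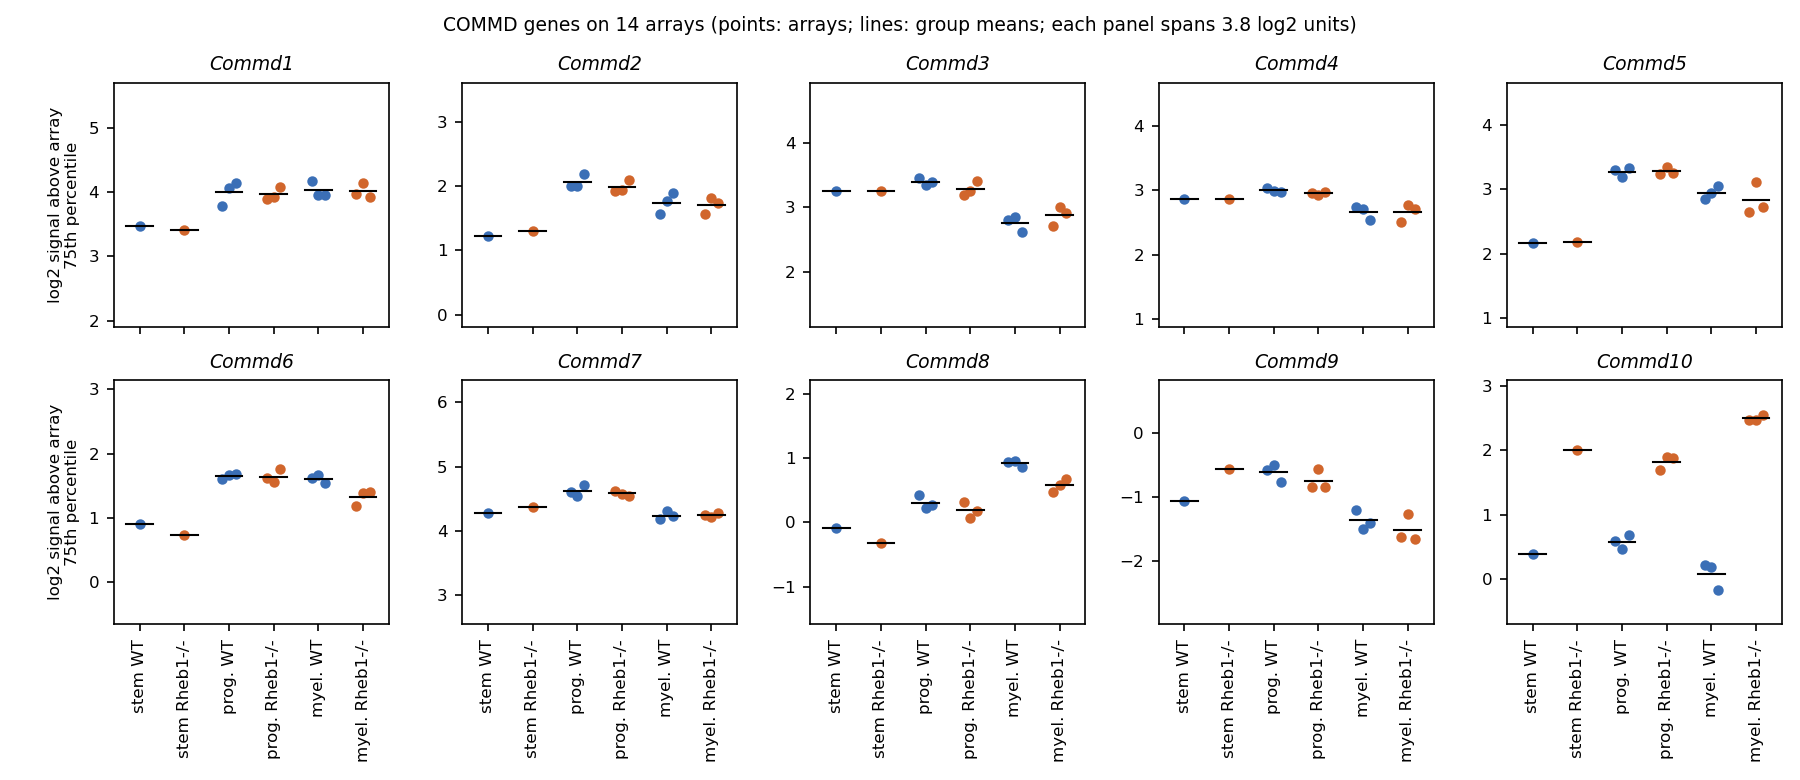
The vertical axes give each gene's log2 signal above the array's 75th percentile, all panels spanning the same number of log2 units, with points for arrays and lines for group means, wild type in blue and Rheb1-/- in orange. The Commd10 points of the Rheb1-/- groups lie between 1.69 and 2.55 and those of the wild-type groups between -0.17 and 0.68. In the panels of Commd1 to Commd5, Commd7 and Commd9, by contrast, the colours overlap in progenitors and in myeloid cells.

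In progenitors none of the other 9 members was called different between the genotypes, in a comparison with few calls in which Rheb itself did not pass. Their differences (Rheb1-/- minus wild type) ran from -0.13 ± 0.14 (SE) for Commd9 to 0.01 ± 0.12 for Commd5, with a median of -0.05 against 0.02 over all genes, and 8 of 9 lay below 0 where 53.4% of all genes lay above it. The lowest adjusted p among them was 0.684, for Commd8 at -0.11 ± 0.09, by limma over all 17727 genes. Limma called 0.0733% of all genes (9 higher and 4 lower, and 7 and 20 with normexp background correction). At an unadjusted p under 0.05 it called 0 of the 9 members and 2138 of all genes. In each of the 9 the arrays of the genotypes overlapped, while over all genes 11.0% lay wholly higher and 8.96% wholly lower in Rheb1-/- progenitors. The highest upper limit of a 95% confidence interval among the 9 was 0.27, or 1.21-fold, again for Commd5, so that intervals for all 9 ended below the 2.38-fold difference of Commd10.

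Members with different roles gave like values in progenitors. Commd1 differed by -0.03 ± 0.12 (SE), with wild-type arrays at 3.78, 4.07 and 4.14 and Rheb1-/- arrays at 3.89, 3.92 and 4.08, so that the Rheb1-/- arrays lay within the wild-type range. Its other 2 probes, shown above, differed by -0.06 each. Commd3 and Commd8, whose products pair and in mice help recruit a kinase to chemokine receptors of B cells, differed by -0.11 each. The other Commd8 probe did not repeat this, with means of -2.54 in wild-type and -2.48 in Rheb1-/- progenitors. Commd5, also known as a calcium-regulated gene linked to hypertension in rats, read 3.30, 3.19 and 3.33 in wild type and 3.24, 3.35 and 3.26 in Rheb1-/-. Commd7, a ring member also linked to NF-kB, differed by -0.04 ± 0.07, Commd4 by -0.05 ± 0.09, Commd2 by -0.07 ± 0.11 and Commd6 by -0.01 ± 0.09. Within slide 3 the 9 differences ran from -0.20 (Commd1) to 0.03 (Commd5).

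In myeloid cells 2 of the other 9 members fell in Rheb1-/- cells and none rose. Limma called 34.2% of all genes in this comparison, 16.5% higher and 17.7% lower, and 2 of 9 exceeds the 17.7% by less than 1 member. Commd8 read 0.94, 0.95 and 0.86 in wild-type cells and 0.48, 0.58 and 0.68 in Rheb1-/- cells, with no overlap. It fell 1.27-fold (-0.34 ± 0.09 SE, n = 3 per genotype, limma adjusted p = 0.0185). The other Commd8 probe read -1.65, -1.77 and -1.82 in wild-type and -2.11, -2.07 and -1.93 in Rheb1-/- cells, again without overlap. In the fit of every probe its difference of -0.29 ± 0.11 did not pass (limma adjusted p = 0.0569), while the first probe did (0.0211), in a fit that called 31.6% of all probes. Without wild-type array 2 or Rheb1-/- array 1 the Commd8 call was lost (limma adjusted p = 0.0577 and 0.0572; 0.00554 to 0.0577 over all alternatives).

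Commd6, whose product is the smallest of the family and consists of little beyond the COMM domain in humans, read 1.62, 1.67 and 1.55 in wild-type and 1.19, 1.39 and 1.41 in Rheb1-/- myeloid cells. The groups did not overlap, and it fell 1.22-fold (-0.29 ± 0.09 SE, limma adjusted p = 0.0296). Normexp background correction gave -0.21 and no call (limma adjusted p = 0.131), and leaving out wild-type array 1 or 2 or Rheb1-/- array 1 also ended the call (0.0608, 0.0942 and 0.0900; 0.0123 to 0.554 over all alternatives). The second Commd6 probe was above background on 3 of 14 arrays and on no myeloid cell array, did not pass the filter and gives no measure there. The mean of both Commd6 probes turned the difference to 0.40 (limma adjusted p = 0.554).

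The remaining 7 members ran from -0.15 ± 0.14 (SE) for Commd9 to 0.12 ± 0.10 for Commd3 in myeloid cells, and each of these overlapped between genotypes. Commd4 differed by -0.00 ± 0.09, Commd1 by -0.01 ± 0.12, Commd7 by 0.01 ± 0.07, Commd2 by -0.03 ± 0.11 and Commd5 by -0.12 ± 0.12. Over the 9 the median was -0.03 against -0.08 for all genes, and 7 lay below 0 where 42.5% of all genes lay above it. Over all genes 21.0% lay wholly higher and 29.0% wholly lower. The highest upper limit of a 95% interval was 0.35, or 1.27-fold, for Commd3, whereas Commd10 read 5.35-fold higher in the same arrays. The second Commd7 probe was above background on all 3 wild-type and 1 of 3 Rheb1-/- myeloid cell arrays. It was so on 1 wild-type and 2 Rheb1-/- progenitor arrays. In myeloid cells it read -4.63 to -3.30 in wild type and -6.12 to -5.18 in Rheb1-/-, without overlap. It passed the filter through wild-type myeloid cells alone, so this difference was not taken as a result. The mean of both Commd7 probes gave -0.83 (limma adjusted p = 0.0742).

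**Figure D2:**
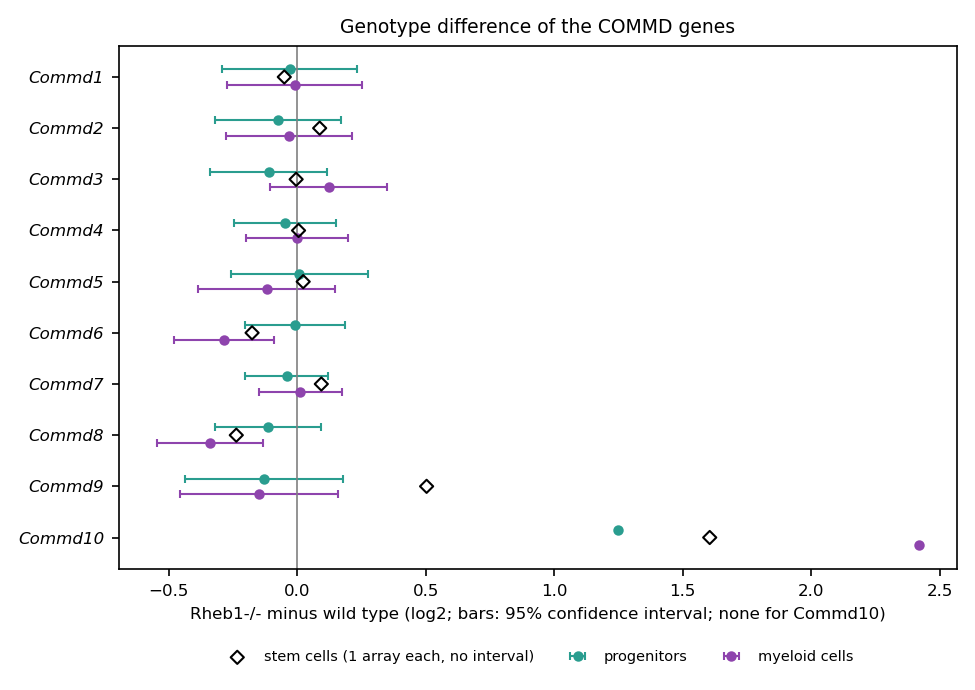
The horizontal axis gives the log2 difference of Rheb1-/- from wild type for each COMMD gene in progenitors (green), myeloid cells (purple) and stem cells (open diamonds, 1 array per genotype), and bars are 95% confidence intervals, left out for Commd10 because its difference chose the family. Commd10 lies at 1.25, 2.42 and 1.60, and the upper ends of all drawn intervals lie at 0.35 or below.

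Markers of several cell types also differed between the myeloid cell groups in which Commd6 and Commd8 fell. In this comparison limma called 16.5% of all genes higher and 17.7% lower, so 1 or 2 calls in a short list are not read as a shift. Of 7 progenitor markers 6 were higher in Rheb1-/- myeloid cells, with summed signals of 998.4 to 1385 against 580.7 to 694.9 in wild type. All 5 measured erythroid markers were lower (4.91 to 25.3 against 44.8 to 107.9), as were 4 of 6 T and NK cell markers (0.621 to 1.06 against 2.80 to 3.72), 3 of 4 tested B cell markers (5.09 to 6.44 against 9.09 to 16.5, with Pax5 not above background on any of these arrays) and 5 of 8 monocyte and macrophage markers (400.6 to 445.6 against 536.4 to 544.5). Lower as well were 5 of 6 megakaryocyte markers (1.18 to 2.08 against 2.73 to 4.62) and 2 of 7 neutrophil markers (2231 to 2784 against 2819 to 3111). Sums overlapped for the eosinophil, basophil and mast cell markers, of which 2 of 5 were lower (91.8 to 143.4 against 119.2 to 180.8), the dendritic cell markers (1 of 5 lower) and the stem cell markers (1 of 6 lower). Their part in the Commd6, Commd8 and Commd10 values was not tested. In progenitors none of the 7 progenitor markers passed, and summed signals were 1401 to 1703 in wild type and 1618 to 1636 in Rheb1-/-. All 6 megakaryocyte markers had an unadjusted p under 0.05 there, with a median of -1.45, but none passed by limma. Their sums were 28.2 to 45.1 in wild-type and 6.55 to 14.3 in Rheb1-/- progenitors, without overlap. Over all genes 2138 of 17727 had an unadjusted p under 0.05. So had 6 of 8 monocyte and macrophage markers (median -0.49), 4 of 6 T and NK cell markers (0.27) and 3 of 6 stem cell markers (-0.34). In no other list were there more than 2. Of the monocyte and macrophage markers 1 of 8 was called lower in Rheb1-/- progenitors (sums 356.5 to 473.7 in wild type and 364.3 to 410.6 in Rheb1-/-), and no marker of the other lists was called.

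Averaged over progenitors and myeloid cells, Commd8 was the one member of the 9 called, at -0.23 ± 0.07 (SE, limma adjusted p = 0.0317), against 24.0% of all genes. This call was lost in 11 of 20 alternatives. Commd6 averaged -0.15 ± 0.06 and did not pass (limma adjusted p = 0.111). The genotype difference was also compared between the cell types. None of the 9 members was called, against 10.9% of all genes, with 1 of the 9 (Commd6, -0.28 ± 0.12, limma adjusted p = 0.162) and 5401 of all genes at an unadjusted p under 0.05. For Commd10 this difference of differences was 1.17 ± 0.16 and was not tested. A call in myeloid cells alone therefore does not show that Commd6 or Commd8 responded differently there than in progenitors.

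On the stem cell arrays, compared as single arrays without a test, the other 9 members differed by -0.24 for Commd8 to 0.50 for Commd9. The next lowest was Commd6, at -0.18, and the other 6 members lay between -0.05 and 0.09. The other Commd8 probe, above background on both stem cell arrays, had the opposite sign (0.16). Commd9, a member linked to Notch receptor recycling, read -1.07 in wild type and -0.56 in Rheb1-/-, a 1.42-fold higher level. In progenitors and myeloid cells its difference had the opposite sign (-0.13 and -0.15) and did not pass. Of the 9, 5 lay above 0 in stem cells, whereas 63.2% of 16661 genes measured on both arrays did. At least 1.5-fold higher were 15.5% of genes and at least 1.5-fold lower 10.1%, and none of the 9 passed either bound. Commd10, at 3.04-fold, was among the 5.31% of genes at least 2-fold higher, and 98.9% of genes lay below it. This Commd10 value helped choose the family, so its rank is a description only. Summed markers of other cell types also differed between these arrays, from wild type to Rheb1-/-. Those of eosinophils, basophils and mast cells read 196.2 and 26.9, of monocytes and macrophages 207.7 and 88.2, of neutrophils 1008 and 529.2, of B cells 26.4 and 13.1 and of erythroid cells 7.23 and 1.91, while the progenitor sum read 473.6 and 710.4. Their part in the stem cell values was not tested.

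**Figure D3:**
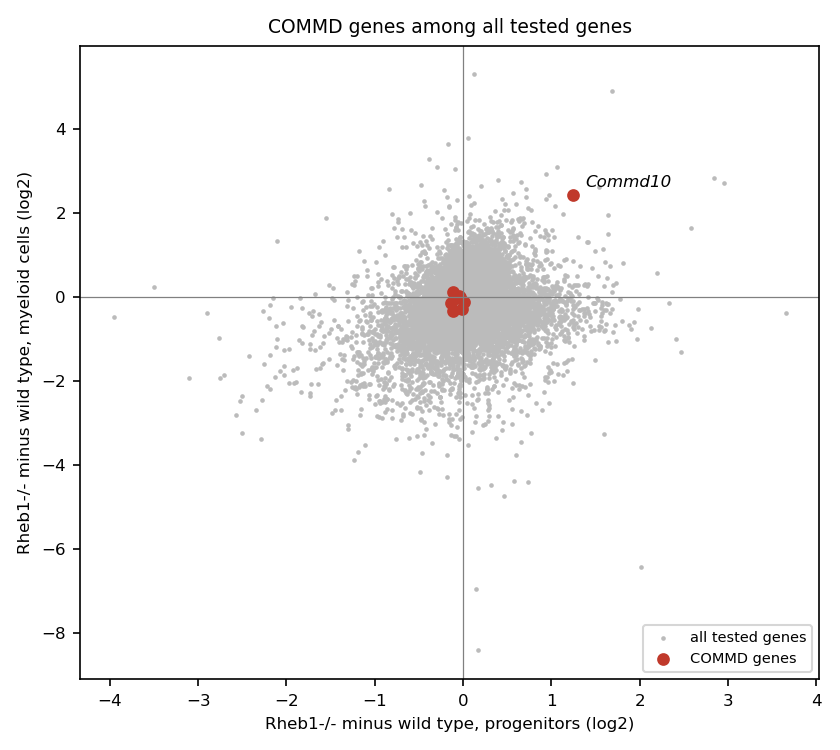
Each grey point is 1 of 17727 tested genes, with its log2 difference of Rheb1-/- from wild type in progenitors on the horizontal axis and in myeloid cells on the vertical axis, and the 10 COMMD genes are in red. Commd10 lies at 1.25 and 2.42, and the other 9 lie between -0.13 and 0.01 on the horizontal and between -0.34 and 0.12 on the vertical axis.

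Most members differed more between the cell types than between the genotypes, which was a trait of the array as a whole. Limma called 81.2% of all genes between the cell types, averaged over genotypes, and 24.0% between the genotypes, averaged over cell types. In myeloid cells, averaged over the genotypes, 7 of the 10 members were lower than in progenitors and 1 was higher, in a comparison in which limma called 81.2% of all genes (38.9% higher and 42.3% lower). The median of the 10 was -0.31, against -0.03 over all genes. Commd9 differed most, with progenitor arrays from -0.85 to -0.50 and myeloid cell arrays from -1.66 to -1.20. These ranges did not overlap, and Commd9 was 1.69-fold lower in myeloid cells (-0.76 ± 0.10 SE, limma adjusted p = 3.43e-05). Commd3 was 1.44-fold lower (-0.53 ± 0.07, limma adjusted p = 5.34e-05), with progenitor arrays from 3.19 to 3.45 and myeloid cell arrays from 2.62 to 3.01.

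Commd5 (-0.39 ± 0.08 SE), Commd7 (-0.36 ± 0.05), Commd4 (-0.31 ± 0.06), Commd2 (-0.30 ± 0.08) and Commd6 (-0.18 ± 0.06) were also lower in myeloid cells, with limma adjusted p from 8.01e-05 to 0.0194. Commd8 was the member that was higher there, by 1.42-fold (0.50 ± 0.07, limma adjusted p = 3.84e-05), with progenitor arrays from 0.07 to 0.42 and myeloid cell arrays from 0.48 to 0.95. Its other probe gave 0.62 ± 0.07 (limma adjusted p = 1.9e-05 in the fit of every probe, which called 80.8% of all probes). Commd8 thus moved opposite to Commd3, with which its product pairs. Commd1 did not pass (0.04 ± 0.08, limma adjusted p = 0.647), and its other 2 probes gave 0.03 and -0.13. Commd10 did not pass either in this average, which is independent of the genotype difference that chose it (0.09 ± 0.08, 95% interval -0.09 to 0.27, limma adjusted p = 0.336).

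That average hides opposite cell type differences of Commd10. In wild-type cells it was lower in myeloid cells than in progenitors (-0.50 ± 0.12 SE), and in Rheb1-/- cells it was higher (0.67 ± 0.12). On slide 4 alone, where progenitor array 3 is the only progenitor array, the Rheb1-/- difference was 0.61. These values share arrays with the comparison that chose the gene and carry no test. Of the other 9, 6 were lower and 1 higher in wild-type cells, where limma called 77.7% of all genes (38.7% higher and 38.9% lower), and Commd1 and Commd6 did not pass. In Rheb1-/- cells 7 were lower and 1 higher, against 68.5% of all genes (29.5% higher and 39.0% lower), and Commd1 did not pass. The Commd6 cell type difference was -0.04 ± 0.09 in wild-type and -0.32 ± 0.09 in Rheb1-/- cells. On slide 4, which holds both cell types of Rheb1-/- mice, the 9 values ran from -0.67 for Commd9 to 0.40 for Commd8, and the sign differed from the estimate over all arrays for Commd1 (-0.06). With slide as a fixed block Commd3, Commd6 and Commd9 were still called lower and Commd8 higher, in a fit that called 55.2% of all genes. On the 4 arrays of slide 4 alone limma called none of the 9 and 46.1% of all genes.

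**Figure D4:**
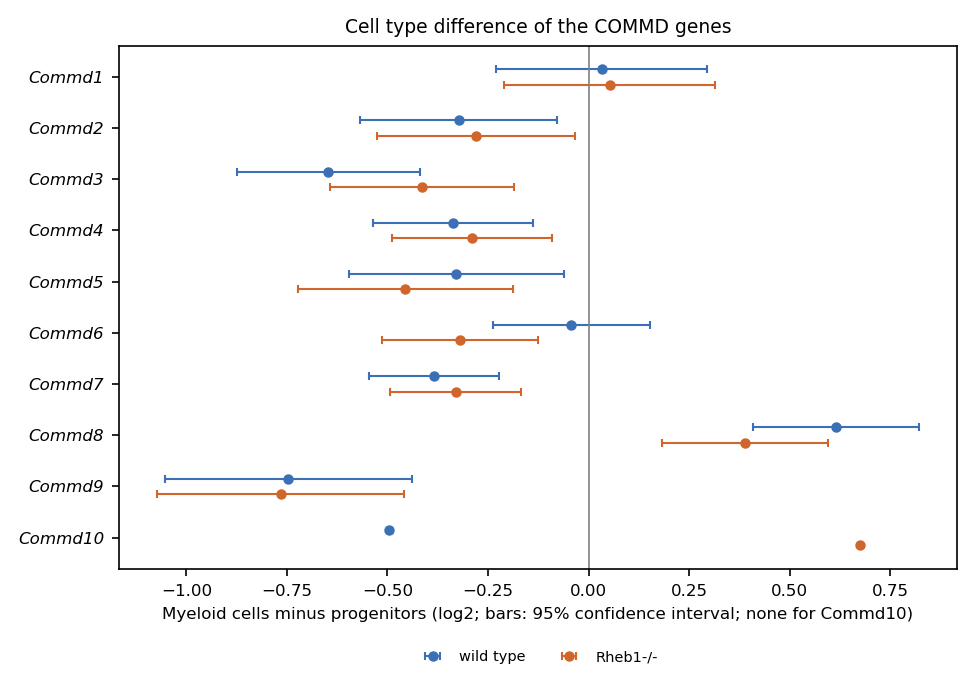
The horizontal axis gives the log2 difference of myeloid cells from progenitors for each COMMD gene in wild-type (blue) and Rheb1-/- (orange) cells, with bars for 95% confidence intervals, left out for Commd10. Commd8 lies above 0 in both genotypes (0.61 and 0.39), Commd9 lies farthest below it (-0.75 and -0.77), and Commd10 changes side (-0.50 and 0.67).

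Among themselves the members fell into similar and dissimilar patterns over the 14 arrays, which share cell types, genotypes and slides, so the correlations are descriptions. Commd3 and Commd4 followed each other (Pearson r = 0.955), as did Commd2 and Commd5 (0.952), while Commd3 and Commd8 ran opposite (-0.725). Commd10 correlated with the other 9 at 0.04 (Commd3) to -0.29 (Commd6 and Commd8). Among tested genes with an official symbol, those with the pattern most like that of Commd10 were Sva (0.906), Plpp6 (0.906), Tln2 (0.897), Tpt1 (0.843) and Stag1 (0.835). Of these, Sva was also at least 2-fold higher in Rheb1-/- cells of all 3 cell types, as were 7 of 17727 genes including Commd10 (0.0395%). Without the 2-fold bound, 3.36% of genes lay wholly higher in both Rheb1-/- progenitors and myeloid cells and higher on the Rheb1-/- stem cell array. Commd10 was chosen for being higher in all 3, so its own place among the 7 is not a separate result.

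Genes of the other parts of Commander and of its known partners were examined next, in lists of 59 genes of which 57 passed the filter (Rel and Snx31 did not). In progenitors limma called none of the 57, against 0.0733% of all genes. At an unadjusted p under 0.05 were 7 of the 57 and 2138 of all 17727 genes. The median of the 57 was -0.01, against 0.02 over all genes. No adjusted p among the 57 was below 0.0754 by limma, the value of the metallothionein gene Mt2 (1.15 ± 0.21 SE). Metallothioneins bind copper and zinc. In myeloid cells 5 rose and 7 fell, with a median of -0.12 against -0.08 over all genes, so that 12 of 57 passed where 34.2% of all genes did.

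The counts by list stand beside 16.5% of all genes called higher and 17.7% called lower in Rheb1-/- myeloid cells. Single calls in a short list are therefore not read as a result about the list. By list, 1 of the 6 Commander genes outside the COMMD family passed in Rheb1-/- myeloid cells, and it was called higher. This was Ccdc22, whose product anchors the COMMD ring (0.29 ± 0.09 SE, limma adjusted p = 0.0343), named after its value was seen. The list's median was -0.08, and its lowest value was -0.22, for Dennd10. Of 4 retromer genes none passed, and of 8 genes of the WASH complex, which makes actin on endosomes, 1 fell. Of 3 sorting nexins 1 fell, namely Snx17 (-0.36 ± 0.09, limma adjusted p = 0.0126), which hands receptors to Commander. Of 8 cargo genes 2 fell.

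Of 9 copper handling genes 2 rose and 1 fell in Rheb1-/- myeloid cells, where limma called 16.5% of all genes higher and 17.7% lower. Mt1 was higher by 1.63 ± 0.13 (SE, limma adjusted p = 0.000171) and Mt2 by 0.87 ± 0.21 (limma adjusted p = 0.0101), while the copper transporter gene Slc31a2 was lower (-0.47 ± 0.13, limma adjusted p = 0.0209). Of 7 NF-kB genes 1 fell, and of 13 cullin ligase genes, whose complexes COMMD proteins bind, 2 rose (Cul5, 0.42 ± 0.07, and its exchange factor Cand1, 0.31 ± 0.08; limma adjusted p = 0.00200 and 0.0153) and 1 fell (Elob, -0.32 ± 0.08, 0.0103). Between the cell types 3 of the 6 Commander genes were lower and 2 higher in myeloid cells, averaged over the genotypes, where limma called 81.2% of all genes. Ccdc22 (-0.84 ± 0.06) and Ccdc93 (-0.69 ± 0.07) were lower like most COMMD genes, and Dennd10 (0.74 ± 0.06) and Vps26c (0.62 ± 0.08) were higher.

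Commd10 was also set beside its neighbours. Its probe lay at chr18:47247461-47247520 on the plus strand (mm9). Within 1 Mb of it the files place 24 other genes, of which 17 passed the filter. In progenitors none of the 17 was called (median -0.05), and in myeloid cells 6 were called higher and none lower (median 0.18), where limma called 16.5% of all genes higher. None reached the 2.42 of Commd10, the highest being 1.09. The nearest tested gene, the semaphorin gene Sema6a at 158 kb, differed by -1.08 ± 0.78 (SE) in progenitors and 0.03 ± 0.78 in myeloid cells and was above background on 11 of 14 arrays. Next on the other side was Ap3s1, which encodes a subunit of the AP-3 vesicle coat, at 297 kb, with 0.06 in progenitors and 0.51 in myeloid cells (limma adjusted p = 0.00995).

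Beside it lay 2 transcripts without an official symbol, which were called higher in myeloid cells by 1.07 and 1.09, as was a row with an array identifier (0.88) on the far side of Sema6a. Called higher as well were Eif1a (0.77) and Fem1c (0.50), at 478 kb and 582 kb. Atg12 (0.14), Cdo1 (0.18), Tmed7 (0.17), Ticam2 (-0.44) and 1 further transcript without a symbol (-0.35) did not pass in myeloid cells. On the stem cell arrays, at 1 array per genotype, Commd10 (1.60) did not exceed all neighbours, since that further transcript differed by 2.57. Sema6a differed there by 1.33, the pair of transcripts beside Ap3s1 by 1.31 and 1.09, and Ap3s1 by 0.40.

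**Figure D5:**
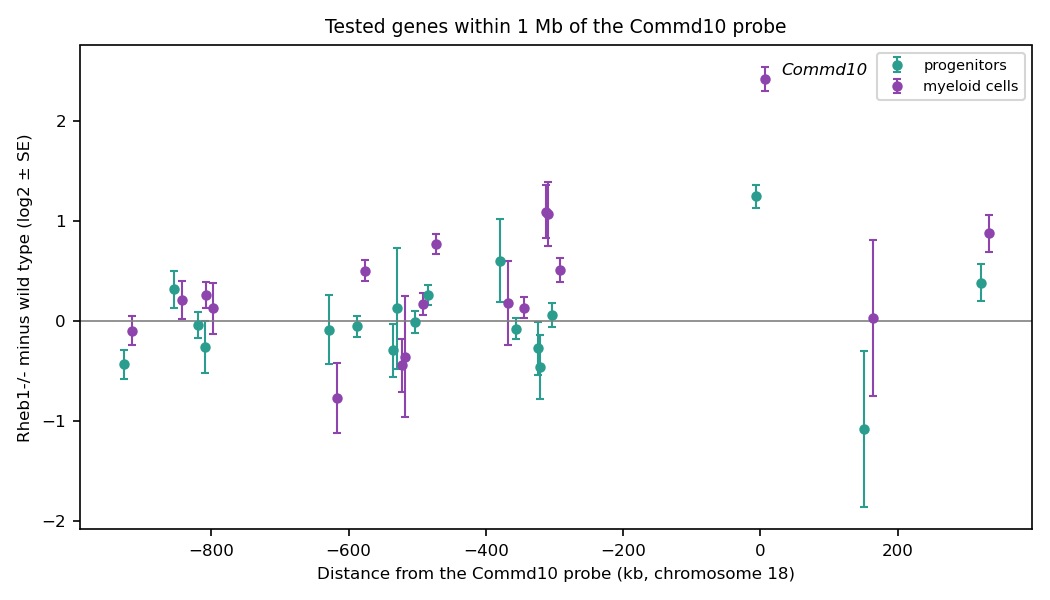
The horizontal axis gives the distance from the Commd10 probe in kb, with the cell types drawn side by side for each gene, and the vertical axis the log2 difference of Rheb1-/- from wild type with its SE, in progenitors (green) and myeloid cells (purple). Commd10, at 1.25 and 2.42, lies above all 17 tested neighbours in both cell types, the highest of which read 0.60 in progenitors and 1.09 in myeloid cells.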

How the data were processed

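Spot intensity was the processed signal, background-subtracted and detrended by Agilent Feature Extraction, per the file headers, which name version 10.7.3.1 (9.1 per the submitters' processing notes). A table of log2 values of 41265 probes, deposited by the authors, has near-identical sorted columns (spread at most 0.00234), as quantile normalization gives, and served as an alternative. How background was treated in it is not stated. Of 45018 spots per array 1639 controls were left out, as were 79 to 195 outliers, and repeated spots were averaged by probe. Names came from a RefSeq table (GRCm38.p6, names only) through accession (27668 probes), symbol (5589) or older symbol (471), and 7446 probes kept the file's name.

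Each array's 75th percentile was subtracted from its log2 processed intensities. Tested genes had at least 1 of the 4 replicated groups with the probe well above background on every array. Limma 3.58.1 under R 4.3.3 (with statmod 1.5.0) fitted 1 mean per group to 12 arrays (8 residual and 1.95 prior degrees of freedom), with two-sided Benjamini-Hochberg adjusted p under 0.05 over all genes. Stem cell arrays were compared without a test. Tested on simulated data for 17727 genes, the fit recovered 65 and 66 of 100 genes changed by 1 (log2) in progenitors and myeloid cells, and 86 and 85 of 100 changed by 2, with 6 and 10 false calls. The simulated data had independent noise, no slide effect and few changed genes. These counts therefore do not carry over to the real myeloid cell comparison, nor to differences smaller than 1. Members, partner and marker lists and settings were chosen with earlier results of these data known. Named were Rheb, all members, the 5 genes with an official symbol most correlated with Commd10, up to 8 called partners of smallest p per comparison and the 12 nearest tested neighbours. Alternatives were normexp (offset 50), quantile normalization, the deposited values, other filters, probes averaged or tested singly, replicate or slide blocks, fewer groups, single slides and each array left out. Few arrays limit the precision. The values of 1 partner gene are not reported here.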

Additional observations from a re-analysis of the deposited data

Results flagged for a closer look

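Commd10 is drawn out by 1 pattern. Its difference between myeloid cells and progenitors ran in opposite directions in the genotypes, every wild-type myeloid cell array lying below every wild-type progenitor array (-0.50 by group means) and every Rheb1-/- myeloid cell array above every Rheb1-/- progenitor array (0.67). The difference between these differences was 1.17 on the log2 scale, and it was not tested because the genotype differences of Commd10 chose the family. Over all genes 39.7% lay wholly lower in wild-type myeloid cells than in wild-type progenitors. Between the Rheb1-/- cell types 31.9% lay wholly higher in myeloid cells, so either separation on its own is common. In wild-type cells the cell types lay on different slides, so slide and cell type cannot be told apart there. On slide 4 the Rheb1-/- value was 0.61, from all Rheb1-/- myeloid cell arrays against progenitor array 3 alone.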

How the results depend on the processing

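In progenitors the count of the other 9 members called stayed at 0 in all 24 alternatives. Of these, 3 (replicate block, only the groups compared, slide 3 alone) called no gene at all and so show nothing about the members. Other alternatives also called few genes, such as 4 of 17727 with slide as a fixed block and 27 with normexp. A count of 0 among 9 members therefore shows little in those as well. In myeloid cells 0 were called higher in all 22. The Commd10 difference ran from 1.19 to 1.31 in progenitors and from 2.27 to 2.49 in myeloid cells, and was 1.76 in stem cells with quantile normalization. The 2 members lower in myeloid cells became 1 with normexp, without the filter, with probes averaged by gene, with the replicate block and with only the groups compared, and 0 to 2 with single arrays left out (0 without wild-type array 2 or Rheb1-/- array 1). Commd6 turned to 0.40 with the mean of its probes, 1 of which was not above background in these cells. The 1 member lower in the mean of both cell types became 0 with normexp, without the filter, with the mean of probes and with the replicate block, and 0 to 1 with single arrays left out. Between cell types, testing every probe singly counted 3 probes higher in wild-type cells, 2 in Rheb1-/- cells and 2 in their average. Over all probes that fit called 76.8%, 68.1% and 80.8% in either direction. The 2 are both probes of Commd8, so they do not add a member. The third in wild-type cells is the second Commd7 probe, which passed the filter only through wild-type myeloid cells, where it was highest. The mean of probes left 4 lower in Rheb1-/- cells and 4 in the average, and turned Commd7 in wild-type cells to 0.62, where its second probe was dim. In Rheb1-/- cells slide as a fixed block left 3 lower, and slide 4 alone 0 lower and 0 higher, in fits that called 55.2% and 46.1% of all genes. Quantile normalization moved the median of all genes between wild-type cell types from 0.05 to -0.07. Replicate numbers did not pair the samples (correlations of deviations -0.149 to 0.130), so calls lost with the replicate block are not read as weaker effects. Slide and genotype in myeloid cells and stem cells cannot be told apart by any setting, 1 array per genotype limits the stem cell values, and dim second probes limit what is known of Commd6 and Commd7.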
